A study of Mus musculus with 18 samples.

Results

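The genes described here code for the coat of the lipid droplet and for the enzymes that empty it. They are the perilipins Plin1, Plin2, Plin4 and Plin5, the droplet fusion protein gene Cidec, the lipase genes Pnpla2, Lipe and Mgll, the lipase cofactor gene Abhd5 and the lipase inhibitor gene G0s2. The 10 genes were chosen by name, with earlier results of these data known. All 10 were found among the 55487 genes of the count files. Their levels were compared between Csn8AKO and control (Ctrl) mice in subcutaneous white adipose tissue (sWAT, labelled SF) and, separately, in brown adipose tissue (BAT). In Csn8AKO mice, Cre recombinase under the adiponectin promoter removed exons of floxed Csn8, which encodes subunit CSN8 of the COP9 signalosome, a complex that takes NEDD8 off cullins. The Ctrl mice, labelled WT, carried the floxed alleles without Cre. All mice were male and had fasted for 4 h. The sWAT came from 4 Ctrl and 4 Csn8AKO mice at 12 weeks of age, and the BAT from 5 Ctrl and 5 Csn8AKO mice at 4 weeks. The promoter drives Cre in adipocytes, whereas RNA was taken from whole tissue, so other cells contribute to every value.

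Fat is stored in adipocytes as triglyceride inside droplets that carry a shell of perilipins. In the fed state PLIN1 holds ABHD5 (also called CGI-58) at the droplet, away from the adipose triglyceride lipase ATGL, the product of Pnpla2. After hormonal stimulation PLIN1 is phosphorylated, ABHD5 is released to activate ATGL, and hormone-sensitive lipase (Lipe) and monoglyceride lipase (Mgll) complete the breakdown to fatty acids and glycerol, while G0S2 binds and inhibits ATGL.

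The libraries held 15835721 to 23109603 counted reads in sWAT and 26658593 to 66719937 in BAT. Ribosomal RNA genes took 1.73% to 18.9% of the reads of the Ctrl sWAT libraries and 31.1% and 46.9% of those of Csn8AKO mice 3 and 4. In BAT they took 12.4% in Csn8AKO mouse 2, against 0.874% to 3.29% in the other 4 Csn8AKO libraries and 0.713% to 8.06% in Ctrl libraries. This library stood apart from its group, with a median squared difference of counts, in units of counting noise, of 15.5 to 22.6 to each of the other 4, which differed from one another by 2.95 to 6.64. By the same measure, sWAT libraries differed by 19.6 to 121 among Csn8AKO mice and by 4.91 to 23.5 among Ctrl mice. The largest values, 98.6 and 121, were those of Csn8AKO mouse 4 to mice 1 and 2. The targeted gene, listed as Cops8 and counted over its whole length, was at 7.17 to 8.04 FPKM in Ctrl sWAT and 6.07 to 7.84 in Csn8AKO sWAT, and 8.56 to 10.4 and 6.37 to 8.40 FPKM in BAT. A count over the whole gene in whole tissue does not isolate the deleted exons. The labelled tissues carried their markers, since Adipoq was high in all libraries and Ucp1 was at 1637 to 5408 CPM in BAT and at most 6.81 CPM in sWAT. The sWAT libraries of Ctrl mouse 1 and Csn8AKO mouse 2 stood apart by 273 and 547 CPM of B and T cell markers, against 9.46 to 31.2 CPM in the other 6. Macrophage markers were higher in Csn8AKO mice for 10 of 15 in sWAT and 14 of 15 in BAT, and fibroblast and progenitor markers for 0 of 8 in sWAT and 8 of 8 in BAT (adjusted p under 0.05). The summed skeletal muscle markers were 44.5 to 2998 CPM over both genotypes in sWAT, and 117 and 215 CPM in Csn8AKO mice 1 and 5 of BAT against at most 3.99 CPM in the other 8. The part of these cells in the values of the 10 genes was not tested.

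Levels are given as FPKM, here the count divided by the length of the gene and by the library size after TMM scaling over the 18 libraries, in the usual FPKM scale. In Ctrl sWAT, Cidec, Plin4 and Pnpla2 stood highest, with medians of 972, 777 and 744 FPKM that overlapped in range. These were ranks 13, 20 and 22 among the 21974 protein-coding genes. Plin1, G0s2, Lipe, Mgll and Plin2 followed with overlapping neighbours, from 309.5 down to 80.0 FPKM. Abhd5 and then Plin5 lay apart below them at 16.9 and 7.18 FPKM. In Ctrl BAT the order was led by Pnpla2 at 1276 FPKM, rank 18 of the protein-coding genes and apart from all other members. G0s2 and Cidec came next and overlapped at 659.5 and 633 FPKM, the 6 genes from Plin1 to Mgll formed a run of overlapping neighbours from 265 to 127 FPKM, and Abhd5 was lowest at 14.3 FPKM. In both tissues the cofactor of ATGL was listed far below the lipase itself on this per-length scale.

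Between the tissues of Ctrl mice, 7 of the 10 genes differed (edgeR's quasi-likelihood test, Benjamini-Hochberg adjusted p under 0.05 over all genes tested), while 52.7% of all genes tested did, 25.7% higher in BAT and 27.0% lower. Plin5, a perilipin of oxidative tissues, was the most unequal, at 6.17, 9.55, 6.95 and 7.41 FPKM in sWAT and 101.2, 129, 168, 187 and 149 FPKM in BAT, a 18.9-fold difference (log2 fold change 4.24 ± 0.21 SE, adjusted p = 7.46e-09). G0s2, Plin2 and Pnpla2 were also higher in BAT, by 2.64-fold, 1.90-fold and 1.73-fold (adjusted p = 6.79e-04, 0.00416 and 2.68e-04). Plin4, the perilipin that coats small nascent droplets, was lower in BAT, at 0.303 of its sWAT level (log2 fold change -1.72 ± 0.19 SE, adjusted p = 5.28e-06), as were Cidec and Plin1 with log2 differences of -0.72 and -0.39 (adjusted p = 0.00504 and 0.0270). The call of Plin1 was lost without Ctrl mouse 2 of sWAT or without Ctrl mouse 2 or 4 of BAT, with adjusted p up to 0.0662, and with no filter on low counts, 1 fit of all groups or a replicate block, with adjusted p up to 0.208. That of Plin2 was lost with the lymphocyte markers as covariate (log2 fold change 0.54, adjusted p = 0.0657). The sum of these markers itself differed by tissue, at 9.46 to 273 CPM in Ctrl sWAT and 3.97 to 7.28 CPM in Ctrl BAT. Lipe, Mgll and Abhd5 did not pass the test, with log2 differences of -0.16 ± 0.14, -0.14 ± 0.18 and -0.13 ± 0.25 SE. The BAT mice were 4 weeks old and the sWAT mice 12 weeks old, so tissue and age cannot be told apart.

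**Figure D1:**
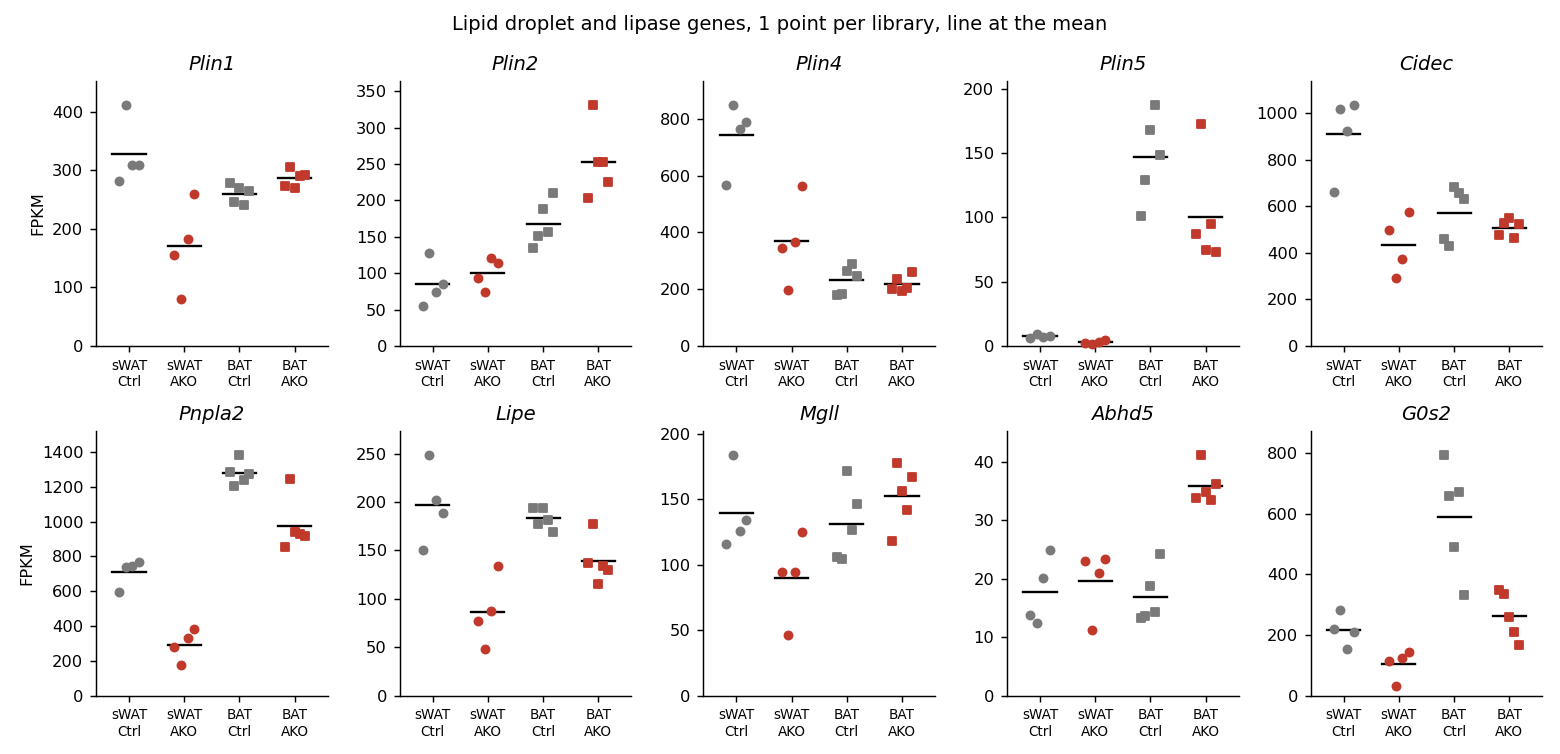
FPKM (vertical axis, linear from 0) of each of the 10 genes in the 18 libraries, 1 point per library and a line at the group mean, Ctrl in grey and Csn8AKO (AKO) in red, sWAT as circles and BAT as squares. The Csn8AKO sWAT points of Plin1, Plin4, Plin5, Cidec, Pnpla2, Lipe and G0s2 lie wholly below the Ctrl points, and in BAT the genotypes separate completely for Abhd5 alone.

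The comparison of genotypes in sWAT asked how the droplet and lipolysis genes stood in fat that lacks CSN8 in its adipocytes. Of the 10 genes, 4 were called lower and none higher at an adjusted p under 0.05, where 5.31% of all genes tested were called, 3.00% lower and 2.30% higher. For 7 of the 10 genes every Csn8AKO library lay below every Ctrl library, and 13.6% of all genes tested had groups apart in one direction or the other. The median log2 fold change of the 10 was -1.03, and that of all genes tested 0.03. In whole tissue, fewer adipocytes and less RNA per adipocyte cannot be told apart.

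Pnpla2, the ATGL gene, was at 595, 741, 747 and 771 FPKM in Ctrl mice and 277, 179, 330.2 and 383 FPKM in Csn8AKO mice 1 to 4. Every Csn8AKO library lay below the lowest Ctrl library, and Pnpla2 fell to 0.412 of the Ctrl level (log2 fold change -1.28 ± 0.25 SE, adjusted p = 0.0178). Lipe, the hormone-sensitive lipase gene, was at 150.0, 249, 202 and 189 FPKM in Ctrl and 77.6, 48.0, 87.0 and 134 FPKM in Csn8AKO mice. It fell to 0.441 of the Ctrl level without overlap (log2 fold change -1.18 ± 0.29 SE, adjusted p = 0.0443). Mgll, whose enzyme removes the last fatty acid, was at 116, 184, 126 and 134 FPKM in Ctrl and 94.3, 46.6, 94.3 and 125 FPKM in Csn8AKO mice. Its groups overlapped through Csn8AKO mouse 4, and the difference did not pass the test (log2 fold change -0.63 ± 0.27 SE, adjusted p = 0.229).

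Among the coat genes of sWAT, Plin5 was the one called. It was low in Ctrl mice, at 6.17, 9.55, 6.95 and 7.41 FPKM, and lower in Csn8AKO mice, at 2.37, 1.81, 3.12 and 4.47 FPKM. The groups were apart, and Plin5 fell to 0.392 of the Ctrl level (log2 fold change -1.35 ± 0.27 SE, adjusted p = 0.0198). The summed level of 8 brown adipocyte markers was 101.1 to 211 CPM in Ctrl and 18.4 to 45.2 CPM in Csn8AKO sWAT, and its part in the result was not tested. Plin1, whose product is the main coat protein of the adipocyte droplet, was at 282, 412, 309.8 and 309 FPKM in Ctrl and 156, 81.0, 183 and 260.3 FPKM in Csn8AKO mice, and Plin4 was at 567, 849, 763 and 790.3 FPKM in Ctrl and 346, 198, 365 and 565 FPKM in Csn8AKO mice. For both genes all Csn8AKO libraries were below all Ctrl libraries, Plin4 only narrowly, yet the spread among the Csn8AKO mice was wide and neither passed the test (log2 fold change -0.94 ± 0.31 SE, adjusted p = 0.114 for Plin1, and log2 fold change -1.003 ± 0.31 SE, adjusted p = 0.0949 for Plin4). Plin2, a perilipin found in many cell types including macrophages, showed the opposite sign, with 54.8, 128, 74.2 and 85.7 FPKM in Ctrl and 92.9, 74.8, 121 and 114 FPKM in Csn8AKO mice. These groups overlapped widely (log2 fold change 0.25 ± 0.25 SE, adjusted p = 0.645).

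Cidec, also known as Fsp27, codes for the protein that drives droplets to merge into the single large droplet of white adipocytes. It was at 662, 1019.6, 925 and 1035 FPKM in Ctrl and 499, 294, 373 and 575 FPKM in Csn8AKO sWAT. All 4 Csn8AKO values were below the Ctrl range, and Cidec fell to 0.481 of the Ctrl level (log2 fold change -1.06 ± 0.25 SE, adjusted p = 0.0365). The regulators of ATGL differed from one another. G0s2 was at 219, 282, 153 and 209 FPKM in Ctrl and 115, 33.4, 123 and 146 FPKM in Csn8AKO mice, apart but widely spread, and did not pass (log2 fold change -1.05 ± 0.38 SE, adjusted p = 0.162). Abhd5 was at 13.8, 12.4, 20.1 and 24.9 FPKM in Ctrl and 23.0, 11.3, 21.0 and 23.4 FPKM in Csn8AKO mice, with groups that overlapped fully and a log2 fold change of 0.15 ± 0.27 SE (adjusted p = 0.814). Its sign turned, to -0.024, when libraries were scaled by their totals alone.

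Csn8AKO mouse 2 had the lowest value of its group for all 10 genes, and Csn8AKO mouse 4 the highest for 9 of them. In mouse 2 the summed level of 10 adipocyte markers was 8089 CPM, against 17657 to 19639 CPM in the other 3 Csn8AKO mice and 19149 to 28146 CPM in Ctrl mice, and mouse 2 also held the 547 CPM of B and T cell markers. Without mouse 2, 5 of the 10 genes were called, where 1477 of all 19197 genes tested were. Without mouse 4, whose reads were 46.9% ribosomal, 6 of the 10 were called, where 999 of all 19749 genes tested were. Leaving out Ctrl mouse 2, 3 or 4 or Csn8AKO mouse 1 or 3 left 0 of the 10 genes called by edgeR. Over all genes tested, 408 of 19640, 386 of 19609, 374 of 19515, 481 of 19439 and 326 of 19686 were called in that order. Over all libraries left out, the 4 called genes kept their direction, with log2 fold changes between -1.63 and -0.92. Their adjusted p was at most 0.133. With all libraries, DESeq2 called 7 of the 10, and 1946 of all 18843 genes tested.

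In BAT the 10 genes did not move one way. The comparison called 5 of them, 2 higher and 3 lower, where 31.9% of all genes tested were called, 16.0% higher and 15.8% lower. The genotypes did not overlap for 1 of the 10, Abhd5, against 21.1% of all genes tested. Without Csn8AKO mouse 2, the library with 12.4% ribosomal reads, 6 of the 10 were called, where 8146 of all 22826 genes tested were. The median log2 fold change of the 10 was -0.11, and that of all genes tested 0.01.

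Abhd5, the activator of ATGL, was at 13.3, 13.5, 18.8, 14.3 and 24.1 FPKM in the 5 Ctrl mice and 33.7, 41.1, 34.8, 33.5 and 36.2 FPKM in the 5 Csn8AKO mice. All 5 Csn8AKO libraries were above the highest Ctrl library, and Abhd5 rose 2.16-fold (log2 fold change 1.11 ± 0.15 SE, adjusted p = 1.30e-04). Its rank among protein-coding genes was 2431 in Ctrl and 858 in Csn8AKO mice. G0s2, the inhibitor of ATGL, was at 794, 659.5, 491, 671 and 332 FPKM in Ctrl and 350.2, 337, 258, 209 and 166 FPKM in Csn8AKO mice. Only Ctrl mouse 5 came within the Csn8AKO range, and G0s2 fell to 0.455 of the Ctrl level (log2 fold change -1.14 ± 0.26 SE, adjusted p = 0.00632). Pnpla2 itself was at 1288, 1204, 1384, 1240.0 and 1276 FPKM in Ctrl and 853, 1245, 939, 931 and 919 FPKM in Csn8AKO mice. It fell to 0.775 of the Ctrl level (log2 fold change -0.37 ± 0.12 SE, adjusted p = 0.0306), with Csn8AKO mouse 2 inside the Ctrl range and the other 4 below it. This call was lost without any 1 of Ctrl mice 3, 4 and 5 and Csn8AKO mice 1, 3, 4 and 5, with adjusted p up to 0.0782.

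The upstream sequences of these 3 genes are shown because ATGL, its activator and its inhibitor had unequal changes in BAT. Each line gives the 250 bases before the RefSeq start site on GRCm38.p6, 5′ to 3′ on the strand of the gene, with matches to 6 searched motifs in capitals. The window of Pnpla2 lies at chr7:141454938-141455187 on the plus strand, that of Abhd5 at chr9:122351366-122351615 on the plus strand and that of G0s2 at chr1:193273189-193273438 on the minus strand.
Pnpla2: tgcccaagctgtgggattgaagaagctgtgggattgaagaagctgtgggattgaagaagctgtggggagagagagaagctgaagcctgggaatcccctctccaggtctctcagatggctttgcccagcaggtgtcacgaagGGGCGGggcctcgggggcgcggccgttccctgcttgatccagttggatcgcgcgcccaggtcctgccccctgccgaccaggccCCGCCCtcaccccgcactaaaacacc
Abhd5: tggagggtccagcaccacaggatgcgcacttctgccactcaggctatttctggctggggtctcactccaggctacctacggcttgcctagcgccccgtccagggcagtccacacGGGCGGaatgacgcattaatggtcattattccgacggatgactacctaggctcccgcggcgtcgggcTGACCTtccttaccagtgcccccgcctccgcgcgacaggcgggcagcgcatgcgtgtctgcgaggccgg
G0s2: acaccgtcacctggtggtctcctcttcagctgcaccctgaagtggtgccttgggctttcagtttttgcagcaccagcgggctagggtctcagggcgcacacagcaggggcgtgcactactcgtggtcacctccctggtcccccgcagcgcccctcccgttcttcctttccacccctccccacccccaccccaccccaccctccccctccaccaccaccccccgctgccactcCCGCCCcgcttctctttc
The motifs, sought on both strands, were the GC box GGGCGG, the nuclear receptor half-site AGGTCA, the E-box CACGTG, the TATA box TATAAA, the CCAAT box CCAAT and the cAMP response element TGACGTCA. In these windows the GC box was found at 2 places in Pnpla2, starting 109 and 26 bases before the start site, at 1 in Abhd5, 136 bases before it, and at 1 in G0s2, 18 bases before it. Abhd5 also held the half-site, as TGACCT, 69 bases before the start. The 10 genes had 14 windows, since Plin5, Cidec, Lipe and Mgll had 2 each, and 6 genes held a GC box in at least 1 window, 3 a half-site, 3 a CCAAT box, 2 an E-box, and none a TATA box or a cAMP response element. Counted the same way over all 27025 genes with a window of this length, 35.4% held a GC box, 15.8% a half-site, 37.5% a CCAAT box, 6.86% an E-box, 14.3% a TATA box and 1.77% a cAMP response element. These are matches of letters, with no measurement of binding.

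Of the other lipase genes in BAT, Lipe was called and Mgll was not. Lipe was at 194, 177, 194, 182 and 168 FPKM in Ctrl and 137, 177, 115, 134 and 129.6 FPKM in Csn8AKO mice. It fell to 0.769 of the Ctrl level (log2 fold change -0.38 ± 0.12 SE, adjusted p = 0.0221), again with Csn8AKO mouse 2 alone in the Ctrl range. The call was lost without Csn8AKO mouse 3, 4 or 5, with adjusted p up to 0.0641. Mgll was at 106, 104, 172, 127 and 146 FPKM in Ctrl and 118, 177, 156, 142 and 167 FPKM in Csn8AKO mice, and its groups overlapped (log2 fold change 0.24 ± 0.15 SE, adjusted p = 0.258).

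Of the coat genes in BAT, Plin2 was the one called. It was at 134, 152, 188, 156 and 209.6 FPKM in Ctrl and 204, 331, 252, 253 and 225 FPKM in Csn8AKO mice. Only Csn8AKO mouse 1 fell below the highest Ctrl library, and Plin2 rose 1.53-fold (log2 fold change 0.61 ± 0.15 SE, adjusted p = 0.00560). The summed level of 15 macrophage markers was 469 to 682 CPM in Csn8AKO BAT and 128 to 174 CPM in Ctrl BAT, and its part in the result was not tested. In sWAT, where Plin2 was not called, the same sum was 1986 to 3367 CPM in Csn8AKO and 1090 to 1536 CPM in Ctrl mice.

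Plin5 in BAT was at 101.2, 129, 168, 187 and 149 FPKM in Ctrl and 86.8, 172, 75.0, 94.9 and 73.1 FPKM in Csn8AKO mice. With Csn8AKO mouse 2 in the fit the difference did not pass (log2 fold change -0.53 ± 0.25 SE, adjusted p = 0.126). Without this mouse, the one high Csn8AKO library, the log2 fold change was -0.81 (adjusted p = 0.00247). Of the 10 fits with 1 BAT library left out, this was the only 1 that called Plin5, and it drops the highest Csn8AKO value. Plin1, Plin4 and Cidec had small log2 fold changes of 0.16 ± 0.09, -0.06 ± 0.15 and -0.15 ± 0.14 SE and were not called, and the sign of Plin4 turned, to 0.061, when libraries were scaled by their totals alone. Their Csn8AKO ranges were 270.5 to 305, 195 to 260.2 and 464 to 549 FPKM, against 240.4 to 278, 179 to 288 and 431 to 683 FPKM in Ctrl mice.

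**Figure D2:**
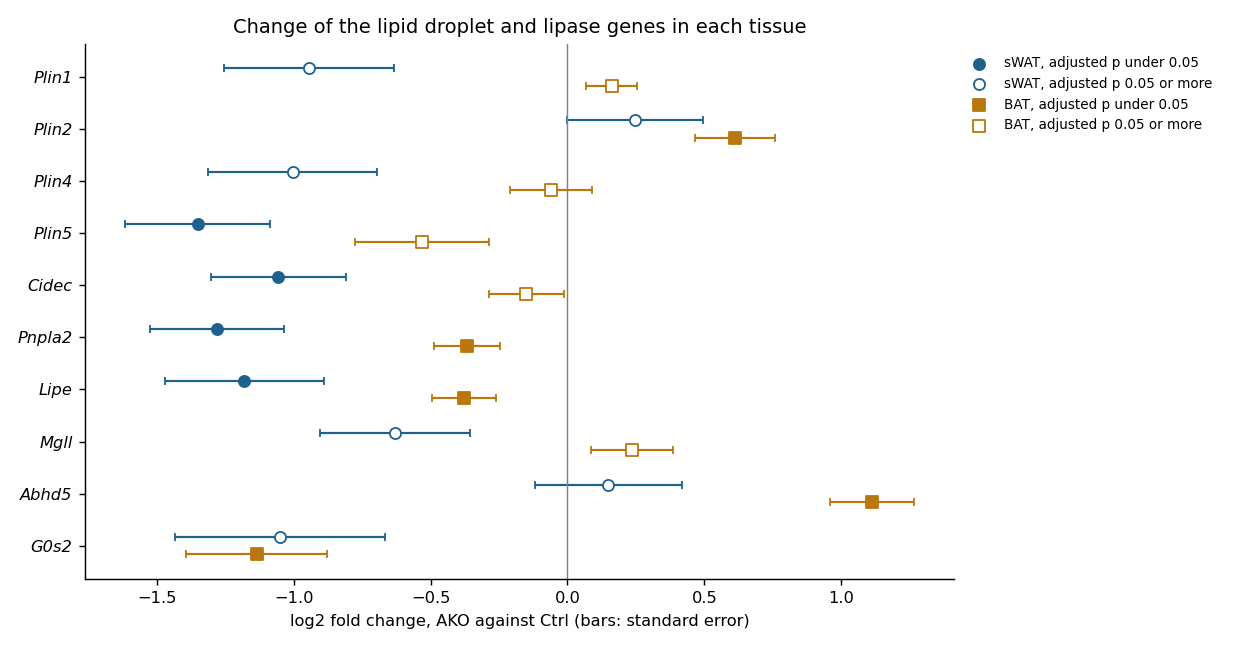
Log2 fold change of Csn8AKO against Ctrl (horizontal axis) with its standard error as bars for each of the 10 genes, sWAT as blue circles (4 against 4 mice) and BAT as orange squares (5 against 5 mice), filled where the adjusted p was under 0.05. In sWAT 8 of the 10 points lie below 0, from -1.35 to -0.63, and in BAT the points run from -1.14 for G0s2 to 1.11 for Abhd5.

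Whether the genotype difference itself differed between BAT and sWAT was tested by the interaction over all 18 libraries. None of the 10 genes passed at an adjusted p under 0.05 with edgeR, where 2.36% of all genes tested did. By the unadjusted p, 8 of the 10 were under 0.05, against 15.3% of all genes tested. DESeq2 and limma voom each called 3 of the 10, and 1092 and 914 of all 22509 genes tested. The estimate was positive for 9 of the 10, which means a higher value for the Csn8AKO effect in BAT than in sWAT. It was largest for Plin1, at 1.09 ± 0.31 SE (adjusted p = 0.0741), and lay between 0.36 for Plin2 and 0.95 for Abhd5 in the other 8 positive genes. G0s2 had an interaction of -0.11 ± 0.48 SE, with its own fold changes at -1.05 in sWAT and -1.14 in BAT, and the sign of its interaction turned in 7 of 26 alternatives. The number called rose to 5 without Csn8AKO mouse 4 of sWAT, to 1 without Csn8AKO mouse 2 of sWAT, and to 8 when libraries were scaled by their totals alone. Over all genes tested, 687 of 23358, 720 of 22982 and 533 of 22509 were called in these 3 settings.

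Ratios of 2 genes within a library do not depend on how libraries are scaled. The ratio of Abhd5 to Pnpla2, as log2 of reads per base, was -5.43, -5.90, -5.21 and -4.95 in Ctrl and -3.59, -3.99, -3.97 and -4.03 in Csn8AKO sWAT. In BAT it was -6.60, -6.47, -6.20, -6.44 and -5.72 in Ctrl and -4.66, -4.92, -4.76, -4.80 and -4.67 in Csn8AKO mice. In both tissues every Csn8AKO library was above every Ctrl library, by 2.79-fold on average in sWAT and 2.88-fold in BAT (two-sided exact permutation test, p = 0.0286 and 0.00794, each the smallest the design allows). Behind it in sWAT were a called fall of Pnpla2 and no call for Abhd5, and in BAT a called rise of Abhd5 and a called fall of Pnpla2.

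The ratio of G0s2 to Pnpla2 differed by 0.12 on the log2 scale in sWAT and -0.75 in BAT (exact permutation p = 0.686 and 0.0635). In linear terms the inhibitor stood at 0.260 to 0.617 of Pnpla2 in Ctrl BAT and at 0.181 to 0.411 in Csn8AKO BAT, and these ranges overlapped. The log2 ratio of Lipe to Pnpla2 differed by only 0.08 in sWAT and -0.01 in BAT, where its SD among Ctrl mice was 0.07. Mgll against Lipe was higher in Csn8AKO mice by 0.56 in sWAT and 0.64 in BAT (exact permutation p = 0.0286 and 0.0238). The groups were apart in sWAT and overlapped in BAT.

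Between coat genes, the log2 ratio of Plin2 to Plin1 was -2.36, -1.69, -2.06 and -1.85 in Ctrl and -0.74, -0.12, -0.60 and -1.19 in Csn8AKO sWAT, apart and 2.51-fold higher. In BAT it was 1.37-fold higher with overlap (exact permutation p = 0.0286 and 0.0238). Plin5 against Plin1 was lower by log2 differences of -0.36 in sWAT and -0.74 in BAT (exact permutation p = 0.0857 and 0.0317), with overlap in both. Plin4 and Cidec against Plin1 differed by -0.04 and -0.04 in sWAT, where all 3 genes had like fold changes, and by -0.20 and -0.29 in BAT. After Benjamini-Hochberg adjustment over the 8 ratios of a tissue, 0 of 8 were under 0.05 in either tissue by this exact test. The smallest adjusted p were 0.0762 in sWAT and 0.0635 in BAT, and 3 ratios in sWAT and 4 in BAT were under 0.05 before adjustment. No single ratio can pass an adjustment over 8 by itself in either tissue. Its exact permutation p can reach no lower than 0.0286 with 4 mice per group and 0.00794 with 5.

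**Figure D3:**
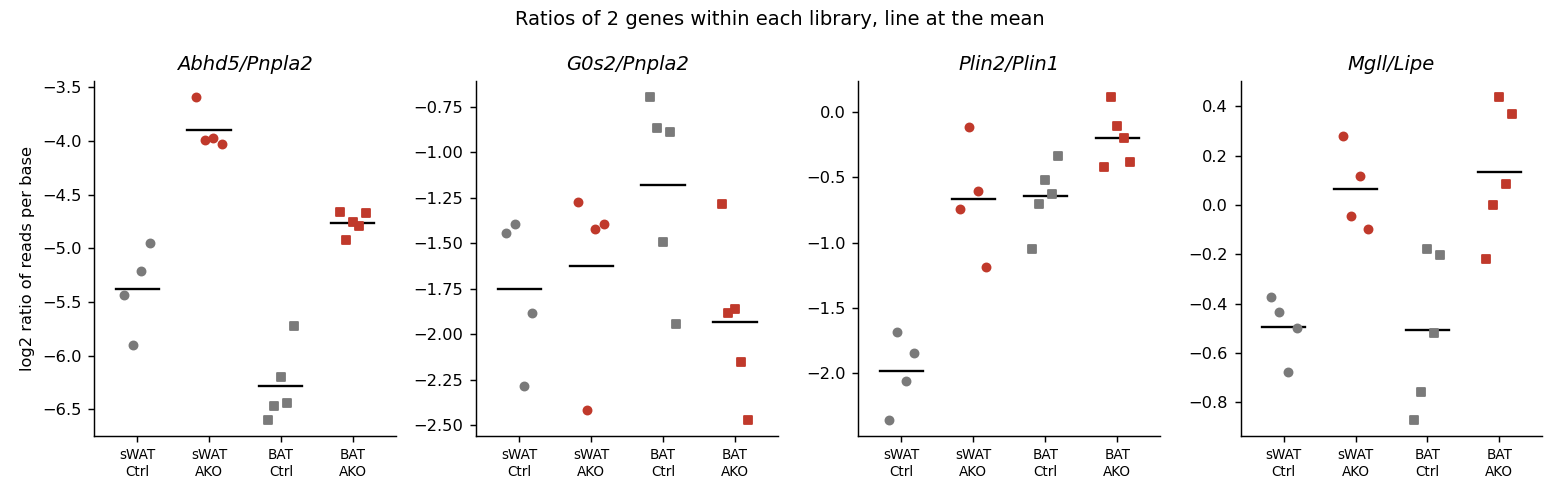
Log2 ratio of reads per base of 2 genes within each library (vertical axis), 1 point per library and a line at the mean, for Abhd5 to Pnpla2, G0s2 to Pnpla2, Plin2 to Plin1 and Mgll to Lipe, Ctrl in grey and Csn8AKO (AKO) in red. Abhd5 to Pnpla2 separates the genotypes in both tissues, with means of -5.38 and -3.90 in sWAT and -6.29 and -4.76 in BAT.

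The genes were also set against the adipocyte markers of the same library, as log2 CPM minus the mean log2 CPM of 10 markers headed by Adipoq. That mean was lower in Csn8AKO sWAT by a log2 difference of -0.64 (two-sided exact permutation test, p = 0.0571) and differed by 0.20 in BAT (same exact test, p = 0.0714). The value in BAT turned on 1 marker, Retn, the resistin gene, which was higher by 3.23 on the log2 scale, while without it the mean of the other 9 differed by -0.13 (same exact test, p = 0.183). In sWAT the difference without Retn was -0.64. On this scale 6 of the 10 genes did not overlap between genotypes in sWAT, 2 higher and 4 lower, where 22.7% of all genes tested did not overlap, 21.3% wholly higher and 1.34% wholly lower. Those lower were Plin5, Pnpla2, Lipe and Plin4, by -0.76, -0.69, -0.62 and -0.45, and those higher were Plin2 and Abhd5, by 0.92 and 0.79. Mgll stood at -0.06, and Plin1, Cidec and G0s2 overlapped at -0.41, -0.45 and -0.57. In BAT, 2 of the 10 genes did not overlap on this scale, Lipe at -0.62 and G0s2 at -1.36, both lower, where 21.7% of all genes tested did not overlap, 16.8% wholly lower and 4.88% wholly higher. Abhd5 was at 0.92 and overlapped. With Retn left out, a choice made after seeing the data, Lipe was at -0.28 and overlapped, G0s2 at -1.02 stayed apart, and Abhd5 at 1.26 did not overlap, where 9.85% of all genes tested were wholly higher and 6.23% wholly lower. In sWAT 6 genes did not overlap without Retn, again 2 higher and 4 lower, where 20.7% of all genes tested were wholly higher and 1.33% wholly lower. With Adipoq alone in place of the 10 markers, 4 genes did not overlap in sWAT and 3 in BAT, against 32.6% and 20.3% of all genes tested. In sWAT 2 were higher and 2 lower, where 31.5% of all genes tested were wholly higher and 1.08% wholly lower. In BAT Pnpla2 and Lipe were apart at -0.47 and -0.48 and Abhd5 at 1.06, while G0s2 overlapped at -1.22. There 6.94% of all genes tested were wholly higher and 13.4% wholly lower.

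Another 66 genes of the same pathway, also listed with earlier results of these data known, were looked up in the same fits. In sWAT 63 were tested, 4 rose and 12 fell, a share of 25.4% called against 5.31% of all genes tested, and the median log2 fold change was -0.25 against 0.03 for all genes. In BAT 61 were tested, 6 rose and 16 fell, a share of 36.1% called that was near the 31.9% of all genes tested, with 9.84% higher and 26.2% lower against 16.0% and 15.8%, and a median of -0.11 against 0.01. The 16 calls of sWAT were 10, 9 and 7 without Ctrl mouse 2, 3 or 4 and 10 and 6 without Csn8AKO mouse 1 or 3. In the same order, the 1000 calls over all genes tested in sWAT were 408, 386, 374, 481 and 326. Among other droplet proteins, Hilpda, which codes for a small hypoxia-induced inhibitor of ATGL, was higher in both tissues, at 3.19 ± 0.665 FPKM in Ctrl and 6.99 ± 0.522 in Csn8AKO sWAT (SD, n = 4), with log2 fold changes of 1.15 ± 0.20 SE in sWAT and 0.88 ± 0.28 SE in BAT (adjusted p = 0.0129 and 0.0264). In BAT its direction was opposite to that of G0s2, the other ATGL inhibitor. Cidea, the relative of Cidec that marks brown and beige adipocytes, held 430 to 1579 reads in Ctrl sWAT and 4 reads in each Csn8AKO sWAT library (log2 fold change -7.52 ± 0.51 SE, adjusted p = 2.27e-04). In BAT it was at 1512 ± 143 FPKM in Ctrl and 1033 ± 417 FPKM in Csn8AKO mice (SD, n = 5) and was not called (adjusted p = 0.0558). Mettl7a1 and Ldah, which code for droplet-associated proteins, fell in both tissues, Mettl7a1 by log2 fold changes of -1.42 and -1.38 and Ldah by -0.68 and -0.29. In BAT Cideb fell (-1.05) and Cav1, the caveolin gene, rose (0.28).

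Of 9 genes for droplet formation, 1 passed in sWAT, 11.1% against 5.31% of all genes. It was Gpat4, which encodes an acyltransferase of triglyceride synthesis, at -0.78 ± 0.16 SE. In BAT 2 of the 8 tested passed, 25% against 31.9% of all genes. They were both diacylglycerol acyltransferases, which make the last step of triglyceride synthesis, and these went opposite ways. Dgat1 was at 92.7 ± 14.1 FPKM in Ctrl and 185 ± 58.6 in Csn8AKO BAT and rose (log2 fold change 1.02 ± 0.18 SE, adjusted p = 0.00100). Dgat2 was at 894 ± 196 and 402 ± 67.5 FPKM and fell (log2 fold change -1.13 ± 0.16 SE, adjusted p = 1.20e-04, SD of levels over n = 5).

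Among 19 other lipid hydrolases, 3 rose and 4 fell of 18 tested in sWAT, 38.9% against 5.31% of all genes, and 1 rose and 5 fell of 16 tested in BAT, 37.5% against 31.9%. Nceh1, a cholesteryl ester hydrolase gene active in macrophages, rose in both tissues (1.90 and 1.53), and Lipa, the lysosomal acid lipase gene, rose in sWAT (1.22 ± 0.20 SE). These stand beside the higher macrophage marker sums given above, and the part of macrophages in them was not tested. Aadac was also called in sWAT, with 0 to 2 reads in Ctrl and 10 to 28 reads in Csn8AKO libraries. The carboxylesterase genes Ces1d and Ces1f fell in sWAT, with log2 fold changes of -2.93 and -2.31. Ces1f also fell in BAT, by -2.06. In BAT Ces1d went from 421 ± 62.4 FPKM to 116 ± 36.2 FPKM (log2 fold change -1.85 ± 0.18 SE, adjusted p = 7.29e-06, SD of levels over n = 5). Ces1d, Ces1f and Mettl7a1 belong to clusters of close paralogs, so reads could be shared or lost between neighbours. Abhd6, a second monoglyceride hydrolase gene, fell in both tissues (-1.09 and -0.93), and Abhd4 fell in BAT (-0.60).

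In the group for lipolytic signalling and product handling, 4 of 18 genes fell and none rose in sWAT, 22.2% against 5.31% of all genes, and 2 rose and 6 fell in BAT, 44.4% against 31.9%. The beta-adrenergic receptor genes, which start the lipolytic signal, were unequal. Adrb1 fell in sWAT (log2 fold change -3.00 ± 0.60 SE, adjusted p = 0.0286), while Adrb3 was at 39.0 ± 8.60 FPKM in Ctrl and 82.1 ± 16.4 FPKM in Csn8AKO BAT (SD, n = 5) and rose there (log2 fold change 1.09 ± 0.15 SE, adjusted p = 1.48e-04). In sWAT Adrb3 did not pass (log2 fold change -1.20 ± 0.31 SE). Pde3b, which codes for the phosphodiesterase through which insulin restrains lipolysis, and Adora1, which codes for an antilipolytic adenosine receptor, fell in sWAT (-1.16 and -1.24). Adora1 also fell in BAT (-1.80), while Pde3b was not called there (-0.29). In BAT the adenylate cyclase gene Adcy6, the protein kinase A catalytic subunit gene Prkacb and the glycerol channel gene Aqp7 fell (-0.59, -0.48 and -0.64), and Gnai1, for an inhibitory G protein subunit, rose (0.50). Of these genes only Aqp7 was also called in sWAT, where it fell (-1.07).

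**Figure D4:**
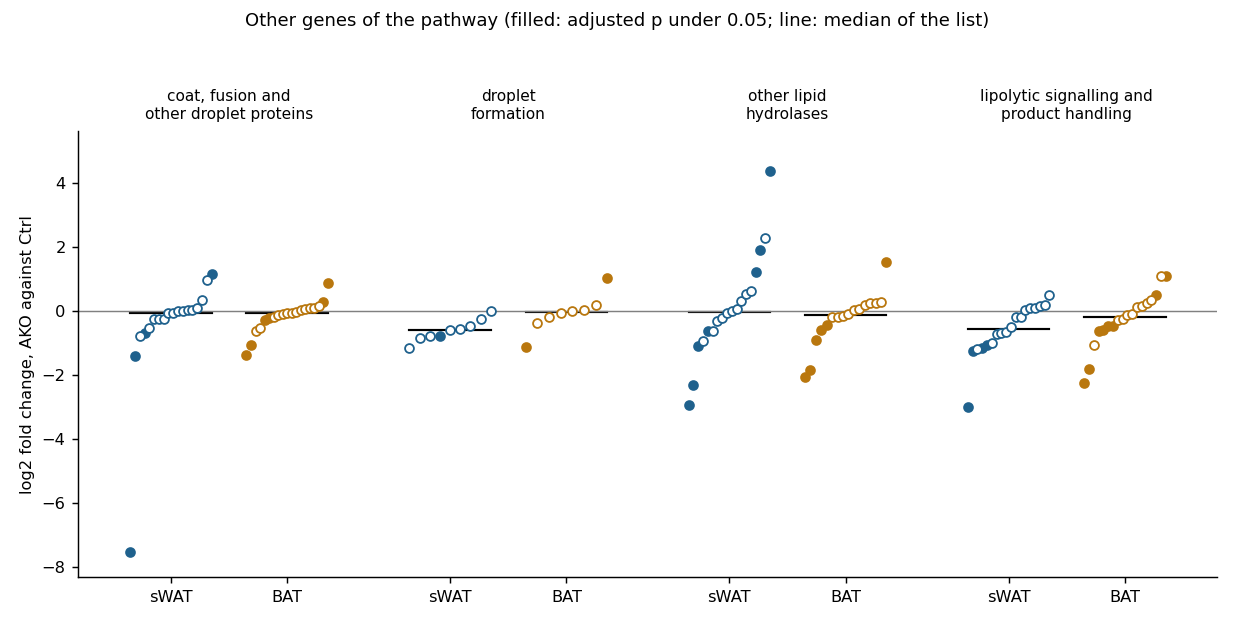
Log2 fold change of Csn8AKO against Ctrl (vertical axis) of the other pathway genes that were tested, by gene group and tissue, sWAT in blue and BAT in orange, sorted by size within each column, filled where the adjusted p was under 0.05 and with a line at the median of the column. The column medians run from -0.61 for droplet formation in sWAT to -0.03 for other lipid hydrolases in sWAT. The lowest point is Cidea in sWAT at -7.52, and the highest, Aadac in sWAT, rests on 0 to 2 reads per Ctrl library.

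By annotation on GRCm38, Plin1, Pnpla2 and Lipe lie on chromosome 7 (79720218 to 79732903 on the minus strand, 141455198 to 141460743 on the plus strand and 25379527 to 25398710 on the minus strand). Plin4 and Plin5 are neighbours on the minus strand of chromosome 17 (56100591 to 56109803 and 56111601 to 56117596), yet their levels differed between tissues in opposite directions. Plin2 lies on chromosome 4 (86648386 to 86670060, minus), Cidec and Mgll on chromosome 6 (113424634 to 113435760, minus, and 88724412 to 88828360, plus), Abhd5 on chromosome 9 (122351608 to 122381524, plus) and G0s2 on chromosome 1 (193272161 to 193273217, minus). All 10 are protein-coding, and counts are over their exons.

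Some exons are shared with genes of the opposite strand, and the sources used here do not say whether counting used the strand, so reads of such stretches cannot be assigned with certainty. Abhd5 shares 950 exon bases with the antisense gene A730085K08Rik, which was at 1.79 ± 0.469 FPKM in Ctrl and 3.53 ± 0.730 FPKM in Csn8AKO BAT (SD, n = 5) and rose with it (log2 fold change 1.00 ± 0.19 SE, adjusted p = 0.00130). Lipe shares 918 exon bases with the antisense gene 4732471J01Rik, which fell in sWAT and BAT (-1.06 and -0.34). Abhd5 itself was at 16.8 ± 4.67 and 35.8 ± 3.14 FPKM in the same groups, and the level of 4732471J01Rik was 4.25 ± 1.21 FPKM in Ctrl sWAT (SD, n = 4) beside 197 ± 40.7 FPKM of Lipe. Their part in the values of Abhd5 and Lipe was not tested. Plin4 shares 17 exon bases with Hdgfl2 and Mgll 167 with several annotated transcripts, and G0s2 lies within Lamb3 without shared exon bases.

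For 8 of the 10 genes the 2 genes with the most similar course of log2 CPM over the 18 libraries, after centring, among 11827 genes are given. The nearest were Sort1 and Pdzd2 for Plin1, Lpcat3 and Bsg for Plin2, and Col4a3 and Aoc3 for Plin4. For Pnpla2 they were Nrg4 and Mfn2, for Lipe Sod1 and Chchd6, for Mgll Syt12 and Btd, for Abhd5 Frrs1 and Myl9, and for G0s2 Cdnf and Slc24a3. Among these pairs the mean absolute difference per library was smallest for Pnpla2 with Nrg4, at 0.13 on the log2 scale, and largest for G0s2 with Slc24a3, at 0.28. The libraries share tissue and genotype differences, so these are descriptions of likeness over the same 18 libraries. None of these 8 genes had another of the 10 among its nearest pair.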

How the data were processed

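The 18 libraries were prepared from total RNA after ribosomal RNA depletion and sequenced from both ends. The authors aligned the reads to the Ensembl release 101 genome (GRCm38) with STAR 2.7.9a and deposited, for each library, the count of uniquely aligned, unambiguous reads of each of 55487 genes from featureCounts. The deposited CPM, FPKM and TPM of the authors are that count scaled to the library total, also per gene length for FPKM and TPM. They were checked against the counts and not used further, so that the FPKM printed here was recomputed with TMM factors. The use of strand in counting is not given in the sources used here.

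Counts were compared between genotypes within each tissue with edgeR 4.0.16 in R 4.3.3 (TMM factors, genes kept by filterByExpr at its defaults of 10 reads and 15 in total, and a robust quasi-likelihood fit), with Benjamini-Hochberg adjustment over all genes tested and calls at an adjusted p under 0.05. The interaction used all 18 libraries. The methods give a number of mice per genotype and mention no pooling for RNA sequencing, so each library was taken as 1 mouse. The p-values weigh the genotype difference against the spread between these mice. Ratios of reads per base, with 1 read added to each count, were tested with the exact two-sided permutation of mice. Log2 CPM used a prior count of 2. Marker lists were for adipocytes, brown adipocytes, macrophages, B and T cells, fibroblasts and progenitors, and skeletal muscle. Promoter windows came from RefSeq on GRCm38.p6, where all 10 genes matched. Tables were made with Python 3.11.15, pandas 2.3.3 and scipy 1.17.1. The fits were tested on simulated data.

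Named genes were all 10 members, from each of 4 lists of other pathway genes up to 3 called genes per tissue and direction with the smallest adjusted p, and for each member the 2 genes nearest in course, clone and predicted names left out, with overlapping antisense genes named after their values were seen. The nearest genes of 2 members are not reported here. The members and lists were chosen with earlier results of these data known. Alternatives were RLE factors, library totals alone, no filter on low counts, DESeq2 1.42.0 and limma 3.58.1 voom with quality weights. Others were 1 fit of all groups, a replicate block and no ribosomal RNA genes. The mean log2 CPM of the lymphocyte markers as covariate and each library left out in turn were also used. The adipocyte markers without Retn were added after seeing the data. Same-numbered libraries of the 2 genotypes showed no shared deviation.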

Additional observations from a re-analysis of the deposited data

Results flagged for a closer look

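In Csn8AKO BAT, mouse 2 stood far above the other 4 mice for Plin5, at 172 FPKM, and for Pnpla2, at 1245 FPKM. In Csn8AKO sWAT, the log2 ratio of Abhd5 to Pnpla2 was -3.59 in mouse 1, above the other 3 mice, and that of G0s2 to Pnpla2 was -2.42 in mouse 2, below the other 3. These 4 values passed Dixon's 95% limit among 72 groups of values looked at, of which chance marks about 1 in 20. Without Csn8AKO mouse 2 of BAT, Plin5 was called lower there (adjusted p = 0.00247), in a fit that leaves out the value flagged as high. It was not called with any other single BAT library left out.

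Between BAT and sWAT, the Csn8AKO effect differed by the interaction test for 6 of the 64 tested genes of the pathway other than the 10 members. Of all genes tested, 2.36% differed at the same adjusted p under 0.05. The 74 genes looked at included the 10 members, of which none passed. The interaction, as BAT minus sWAT on the log2 scale, was 7.02 for Cidea, 2.90 for Adrb1, 2.27 for Adrb3 and 1.07 for Cav1 (adjusted p = 1.84e-06, 0.00865, 0.00175 and 0.0370 over all genes tested). It was -1.44 for Lipa and -0.56 for Prkacb (adjusted p = 0.0184 and 0.0168). Adrb3 had a log2 fold change of -1.20 in sWAT and 1.09 in BAT, and Cav1 of -0.80 and 0.28. Tissue and age cannot be told apart in these differences.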

How the results depend on the processing

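Abhd5 and Plin2 in BAT kept their direction and their call under all 19 alternatives, with log2 fold changes of 1.03 to 1.28 and 0.50 to 0.86. G0s2 lost its call in BAT only with the mean log2 CPM of lymphocyte (B and T cell) markers as covariate (adjusted p = 0.128). In BAT the sum of these markers was low and partly followed genotype, with medians of 5.40 CPM in Ctrl and 8.47 CPM in Csn8AKO mice. It also differed by tissue, with a median of 17.3 CPM in Ctrl sWAT. The covariate can therefore take up part of the genotype or tissue difference itself. Pnpla2 in BAT was called in 9 of 19 and Lipe in 13 of 19 alternatives. Between tissues, Plin1 lost its call in 6 alternatives and Plin2 in 1. In sWAT Pnpla2, Lipe, Cidec and Plin5 kept their direction under all 17 alternatives and their call in 11.

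Of the 10 genes, 4 in sWAT became 7 with library totals and with DESeq2, 0 with the replicate block, and 0 to 6 with 1 library left out. The 5 in BAT became 3 with 1 fit of all groups, 2 with the covariate, and 3 to 6 with 1 library left out. The 0 in the interaction became 8 with library totals, 3 with DESeq2 and with voom, 1 without ribosomal RNA genes, 6 with the covariate and 0 to 5 with 1 library left out. Over all genes, the 1000 calls in sWAT were 434 with library totals, 1946 with DESeq2, 2129 with voom, 2463 with 1 fit, 299 with the replicate block, 2137 with the covariate and 326 to 1477 with 1 library left out. The 7121 in BAT were 5260 with 1 fit, 2406 with the covariate and 5723 to 8146 with 1 library left out. The 532 in the interaction were 533 with library totals, 1092 with DESeq2, 914 with voom and 297 with the replicate block. They were 569 without ribosomal RNA genes, 1041 with the covariate and 355 to 720 with 1 library left out. The 16 other pathway genes in sWAT were 27 with voom, 26 with 1 fit, 8 with the replicate block, 28 with the covariate and 6 to 19 with 1 library left out.

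Library totals moved the median log2 fold change of all genes to 0.14 in BAT, 0.21 in the interaction and -0.19 between tissues, from 0.01, 0.00 and 0.01. The split of higher against lower calls became 106 to 328 in sWAT (434 to 566 with TMM), 4183 to 2087 in BAT (3585 to 3536), 494 to 39 in the interaction (362 to 170) and 3781 to 6719 between tissues (5748 to 6039).

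The sign turned for Abhd5 in sWAT with library totals (-0.024) and over libraries left out (-0.0036 to 0.35), and in BAT for Plin4 with library totals (0.061), with the covariate (0.18) and over libraries left out (-0.15 to 0.034), and for Plin5 (0.12) and Cidec (0.035) with the covariate. It turned for G0s2 in the interaction with library totals (0.27), the replicate block (0.0073), the covariate (0.051) and over libraries left out (-0.40 to 0.098), and, with 1 library left out, for Mgll (-0.26 to 0.027) and Abhd5 (-0.30 to 0.084) between tissues. With 1 library left out it also turned for the ratios Plin4/Plin1 (-0.094 to 0.021), Cidec/Plin1 (-0.18 to 0.095), G0s2/Pnpla2 (-0.053 to 0.39) and Lipe/Pnpla2 (-0.016 to 0.17) in sWAT and Lipe/Pnpla2 in BAT (-0.060 to 0.038). The cause was not tested.

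Same-numbered libraries did not deviate together (correlations of -0.38 to 0.22 in sWAT and -0.10 to 0.11 in BAT), so the replicate block pairs libraries by a number only. Ratios in sWAT were not tested with 1 library left out, since 3 against 4 mice allow no p under 0.0571. Up to 46.9% ribosomal reads in a sWAT library lowers the depth behind its other genes.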
